A study of Mus musculus with 24 samples.

Results

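The Trav6-5, Trav6-6 and Trav6-7 gene segments encode variable (V) parts of the mouse T cell receptor alpha chain, and most of them exist in several copies. The copies described here are the rows of the Tcra tables named TRAV6 (the plain copy), TRAV6D or TRAV6N followed by a hyphen and 5, 6 or 7. TRAV6-7-DV9, the plain Trav6-7 segment, carries a name shared with the delta chain and was left out of the set. The rule took 8 of the 117 V names in the Tcra tables: TRAV6-5, TRAV6D-5 and TRAV6N-5; TRAV6-6, TRAV6D-6 and TRAV6N-6; and TRAV6D-7 and TRAV6N-7. In what follows a name in capitals is 1 row of the tables, and "the Trav6-5 copies" are the rows of that number summed.

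The study profiled receptor transcripts in thymocytes of mice aged 4 to 12 weeks on a C57BL/6 background. The wild-type group carried no modified allele that the labels name. The other group lacked Satb1, a nuclear protein that organises chromatin in thymocytes; its genotype is written Satb1-/- in the labels and Satb1cKO, a conditional knockout, in the design text, and the sources used here name no Cre driver. Each group had 3 Tcra libraries, amplified by 5′ RACE with a primer in the constant region, and a value is the percent of a library in which 1 V segment is joined to 1 joining (J) segment. Neither Satb1 nor any marker of thymocyte stage is in these tables, so genotype and cell type could not be checked against them.

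A T cell assembles its alpha chain by joining 1 of many V segments to 1 of many J segments, with deletion of the DNA between them. The first joins use J segments at the 5′ end of the array, nearest to the V segments, and later joins on the same chromosome replace them with V segments farther upstream and J segments farther downstream. In the C57BL/6 strain a large block of V segments is repeated, and the letters D and N name the repeats. The V segment supplies the first and second antigen-contacting loops and the start of the third, which spans the join.

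All 8 segments lie on the plus strand of chromosome 14 in GENCODE M21 (GRCm38), each with a leader exon and a second exon that encodes the V domain. The D copies come first, then the N copies, and the plain copies lie nearest to the J array. TRAV6D-5 (52795165 to 52795633) ends 1362 kb before TRAJ58, the first J segment listed, and TRAV6D-6 (52821922 to 52822359) and TRAV6D-7 (53007612 to 53008098) end 1335 and 1149 kb before it. TRAV6N-5 (53104871 to 53105344), TRAV6N-6 (53132679 to 53133137) and TRAV6N-7 (53318798 to 53319284) end 1052, 1024 and 838 kb before it. TRAV6-5 (53491115 to 53491622) and TRAV6-6 (53516929 to 53517366) end 666 and 640 kb before it. TRAV6-7-DV9 lies still nearer, at 447 kb.

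The second exons are printed because the assignment of a read to a copy can rest only on the bases at which copies differ. They are given 5′ to 3′ from GENCODE M21, with capitals at the positions where copies of the same number differ. For the number 5 they run over the last 289 bases of the exon, the stretch that the 3 copies share.

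TRAV6D-5: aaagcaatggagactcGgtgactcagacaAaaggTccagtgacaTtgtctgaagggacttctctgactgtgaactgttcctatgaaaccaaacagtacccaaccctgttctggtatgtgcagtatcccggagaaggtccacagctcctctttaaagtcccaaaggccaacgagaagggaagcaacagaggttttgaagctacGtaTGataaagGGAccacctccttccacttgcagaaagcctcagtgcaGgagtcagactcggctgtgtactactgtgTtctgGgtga
TRAV6N-5: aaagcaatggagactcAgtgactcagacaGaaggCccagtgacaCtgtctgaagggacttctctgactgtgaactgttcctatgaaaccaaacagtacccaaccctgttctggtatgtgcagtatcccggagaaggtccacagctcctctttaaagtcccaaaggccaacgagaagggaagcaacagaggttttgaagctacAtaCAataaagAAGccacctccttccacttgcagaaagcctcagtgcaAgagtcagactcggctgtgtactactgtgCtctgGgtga
TRAV6-5: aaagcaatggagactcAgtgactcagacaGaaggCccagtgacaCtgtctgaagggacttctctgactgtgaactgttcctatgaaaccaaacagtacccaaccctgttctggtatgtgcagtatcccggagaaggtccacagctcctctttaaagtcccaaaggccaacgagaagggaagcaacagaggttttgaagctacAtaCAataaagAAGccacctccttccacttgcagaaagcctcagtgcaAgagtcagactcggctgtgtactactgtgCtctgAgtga
TRAV6-6, identical in TRAV6D-6: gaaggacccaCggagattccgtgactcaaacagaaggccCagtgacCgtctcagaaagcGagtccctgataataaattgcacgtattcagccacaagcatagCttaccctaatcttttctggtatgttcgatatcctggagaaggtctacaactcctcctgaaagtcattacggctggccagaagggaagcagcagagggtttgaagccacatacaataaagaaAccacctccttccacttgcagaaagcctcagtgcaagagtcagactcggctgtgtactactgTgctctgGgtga
TRAV6N-6: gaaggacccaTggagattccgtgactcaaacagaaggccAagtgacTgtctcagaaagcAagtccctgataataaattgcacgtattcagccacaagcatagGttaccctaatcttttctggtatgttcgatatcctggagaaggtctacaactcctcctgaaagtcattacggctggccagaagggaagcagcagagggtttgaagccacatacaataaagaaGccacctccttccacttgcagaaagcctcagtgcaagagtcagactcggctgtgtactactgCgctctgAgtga
TRAV6D-7, identical in TRAV6N-7: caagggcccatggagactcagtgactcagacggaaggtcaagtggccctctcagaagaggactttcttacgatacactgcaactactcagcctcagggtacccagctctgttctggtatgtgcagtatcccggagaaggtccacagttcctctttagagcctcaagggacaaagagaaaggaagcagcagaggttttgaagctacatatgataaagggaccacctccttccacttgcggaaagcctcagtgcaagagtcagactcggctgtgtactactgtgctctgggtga

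The letters separate the copies unequally. TRAV6D-6 and TRAV6-6 were identical over all 298 bases and over the 46 bases of their leader exons. TRAV6D-7 and TRAV6N-7 were identical over 292 bases and over 66 bases of leader. Over the 289 printed bases TRAV6N-5 and TRAV6-5 differed at 1 position, G285A. Positions are counted from 1 at the first printed base, with the base of the first-named copy first. G285A lies 4 bases from the end of the exon, in the stretch that can be trimmed when V and J join. The leader exons of this pair were not compared. TRAV6D-5 differed from TRAV6-5 at 13 positions and from TRAV6N-5 at 12. TRAV6N-6 differed from TRAV6-6 at 8 positions, and 2 of them, C287T and A294G, lie within 11 bases of the exon's end. Between numbers the identity was 75.8% to 84.0% over 21 pairs, against 95.5% to 100% over the 7 pairs of copies with the same number. The number of a copy is thus well marked in the sequence, while its letter is not marked in the exons of TRAV6D-6 and TRAV6-6 or of TRAV6D-7 and TRAV6N-7. How reads were divided between such copies is not given in the sources used here.

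**Figure D1:**
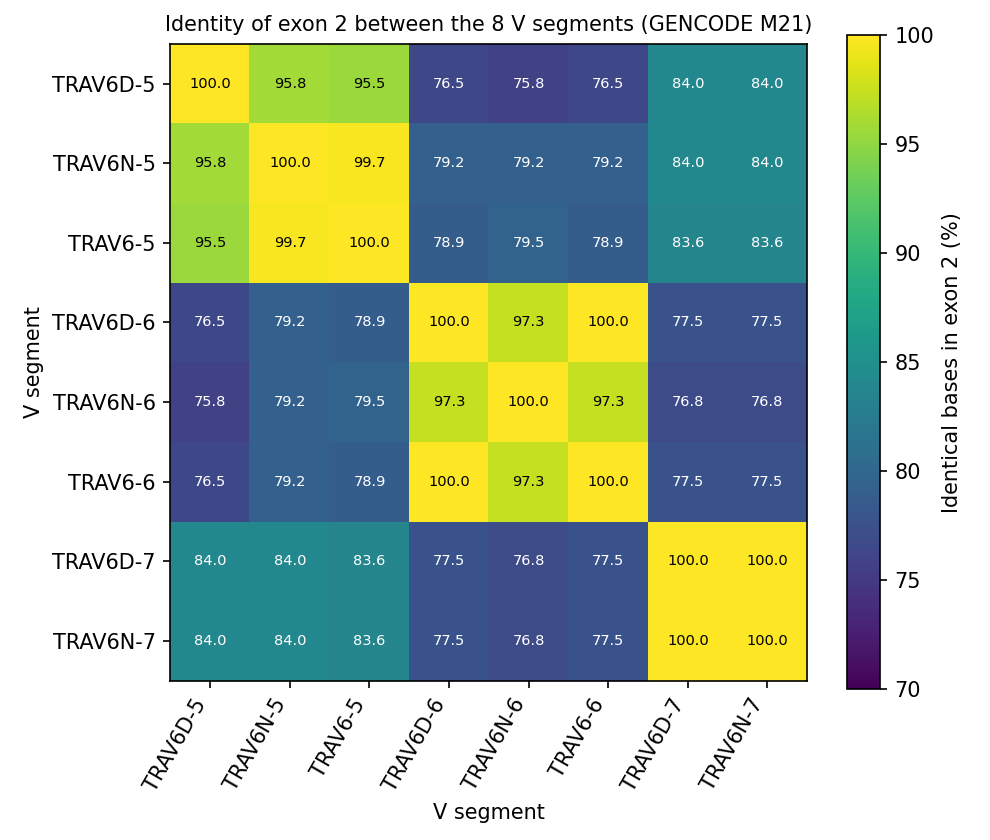
Percentage of identical bases in the second exon for each pair of the 8 V segments, in GENCODE M21. Copies of the same number form 3 blocks of 95.5% to 100%, and 2 pairs of copies reach 100%.

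The libraries differed in resolution, which bears on all values below. The smallest value above 0 was 0.0158%, 0.0157% and 0.0241% in wild type against 0.0180%, 0.0593% and 0.117% in the knockout. Of the 344 possible pairs of these V segments with the 43 J segments, 109, 112 and 91 were above 0 in the wild-type libraries and 77, 22 and 21 in the knockout libraries. A pair listed at 0 in knockout replicates 2 and 3 can therefore have a share that the wild-type libraries would show. Values follow in the order of replicates 1, 2 and 3. Whether each library came from its own mouse is not stated, so a p-value here reflects variation among libraries, which may be technical. In whole thymocyte RNA fewer cells using a segment and less receptor RNA per cell cannot be told apart.

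Together the 8 segments held 3.66%, 3.32% and 4.07% of the wild-type libraries and 2.20%, 1.54% and 2.81% of the knockout libraries. The highest knockout library lay below the lowest wild-type library. The mean was 3.68% ± 0.375 (SD, n = 3) in wild type against 2.19% ± 0.636 (SD, n = 3) in the knockout, or 59.4% of the wild-type level. The exact two-sided permutation p was 0.1, the smallest that 3 against 3 libraries allow, and 0.183 after Benjamini-Hochberg adjustment over the 11 values compared between genotypes. The difference of -1.5 percentage points became 0.786 when only pairs of at least 0.117% were kept, with overlapping genotypes (exact permutation p = 0.7). The 8 then held 0.158%, 0 and 0.770% of the wild-type libraries and 0, 0.474% and 2.81% of the knockout libraries, since this limit removes nothing from knockout replicate 3. The 90 other V names with copies held 82.8%, 81.4% and 80.3% in wild type against 62.3%, 61.9% and 59.9% in the knockout. Set against all copied V segments, the 8 held 4.23%, 3.92% and 4.82% in wild type against 3.41%, 2.43% and 4.49% in the knockout. On that base the genotypes overlapped (exact two-sided permutation p = 0.3).

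**Figure D2:**
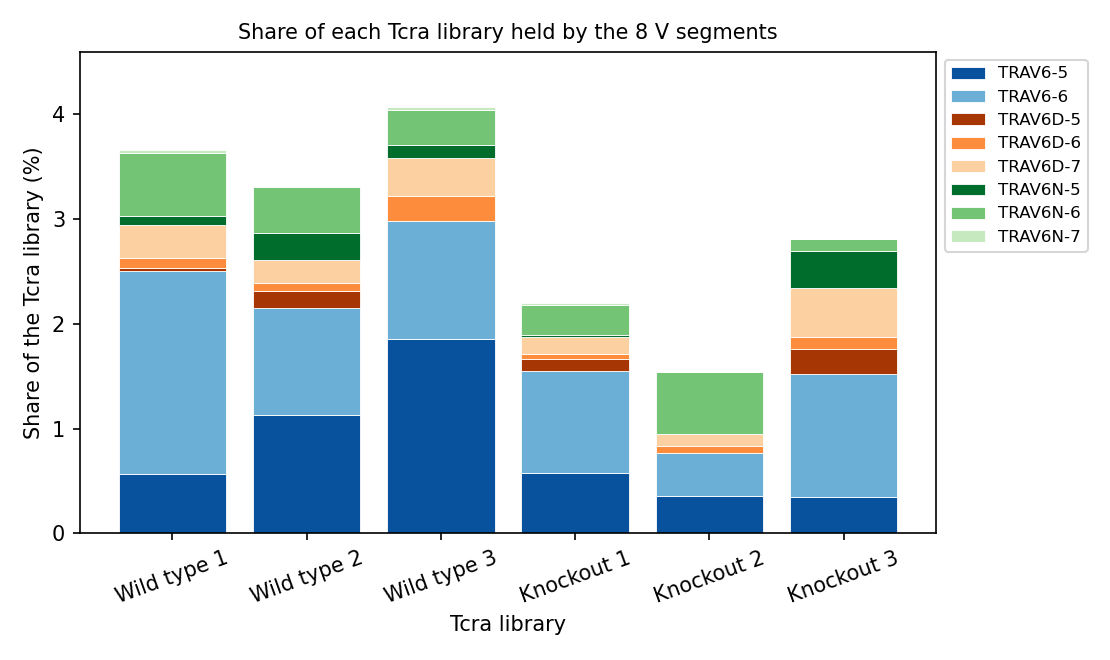
Share of each Tcra library (percent, vertical axis) held by the 8 V segments, stacked by segment, with 1 bar per library. The wild-type bars end between 3.32% and 4.07% and the knockout bars between 1.54% and 2.81%. With only pairs of at least 0.117% kept, the genotypes overlapped and the mean difference changed sign.

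By number, the Trav6-6 copies had the highest mean share in both genotypes, though in wild type this rested on replicate 1. They made up 2.63%, 1.54% and 1.71% of the wild-type libraries and 1.32%, 1.07% and 1.41% of the knockout libraries. The genotypes did not overlap (exact permutation p = 0.1, adjusted 0.183), but when each listed pair was counted once, whatever its share, the difference was 0.0304 percentage points in the other direction. The Trav6-5 copies held 0.681%, 1.54% and 1.97% in wild type against 0.704%, 0.356% and 0.938% in the knockout. They were above the Trav6-6 copies in wild-type replicate 3 and level with them in replicate 2. Wild-type replicate 1 fell among the knockout values (exact permutation p = 0.3). The Trav6-7 copies, of which only D and N are counted, held 0.349%, 0.236% and 0.385% in wild type against 0.180%, 0.119% and 0.469% in the knockout, with overlap (exact permutation p = 0.7). TRAV6-7-DV9 alone held more than the D and N copies of its number in every library, at 3.55%, 4.18% and 5.44% in wild type against 4.26%, 1.60% and 3.05% in the knockout.

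The wild-type library highest in Trav6-6 copies, replicate 1, was the lowest in Trav6-5 copies. The coefficient of variation in wild type was 47% for the Trav6-5 and 29.9% for the Trav6-6 copies, against 10.2% for the sum of all 8. In the knockout it was 44.0% and 13.9%, against 29.1% for the sum, so there the sum varied more than the Trav6-6 copies. TRAV6-6 was listed at 3.39 times the level of TRAV6-5 in wild-type replicate 1 and at 0.903 and 0.610 times in replicates 2 and 3. In the knockout libraries the ratio was 1.69, 1.17 and 3.33.

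By copy, the plain segments held the largest share in every library. TRAV6-5 and TRAV6-6 together held 2.50%, 2.16% and 2.98% of the wild-type libraries and 1.55%, 0.771% and 1.52% of the knockout libraries, with no overlap (exact permutation p = 0.1, adjusted 0.183). They made up 68.9% ± 4.24 of the 8 segments' total in wild type against 58.2% ± 10.8 in the knockout (SD, n = 3). The knockout values were 70.5%, 50.0% and 54.2%. The split of TRAV6-6 from TRAV6D-6, whose exons are identical, enters the plain and D sums. The 3 D copies held 0.444%, 0.456% and 0.602% in wild type against 0.325%, 0.178% and 0.821% in the knockout. Knockout replicate 3 was thus the highest of all 6 libraries for the D copies (exact permutation p = 0.8). The 3 N copies held 0.713%, 0.708% and 0.481% in wild type against 0.325%, 0.593% and 0.469% in the knockout, with overlap (exact permutation p = 0.2).

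Singly, TRAV6-6 was the most used of the 8, at rank 28 of 117 V names by mean share. Its share was 1.93%, 1.02% and 1.13% in wild type against 0.974%, 0.415% and 1.17% in the knockout. Knockout replicate 3 lay inside the wild-type range. TRAV6-5 ranked 36, with 0.571%, 1.13% and 1.85% in wild type against 0.577%, 0.356% and 0.352% in the knockout. Wild-type replicate 1 equalled knockout replicate 1 to within 1 step of its resolution, while the other wild-type libraries stood above all knockout libraries. TRAV6N-6 ranked 51 and held 0.602%, 0.440% and 0.337% in wild type against 0.289%, 0.593% and 0.117% in the knockout, with overlap. TRAV6D-7 ranked 63 and held 0.317%, 0.220% and 0.361% in wild type against 0.162%, 0.119% and 0.469% in the knockout, where replicate 3 was the highest library.

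The other 4 ranked between 79 and 104. TRAV6N-5 held 0.0792%, 0.252% and 0.120% in wild type against 0.0180%, 0 and 0.352% in the knockout. Its knockout replicates 1 and 2 lay below all wild-type libraries and replicate 3 above them. TRAV6D-6 held 0.0951%, 0.0787% and 0.241% in wild type against 0.0541%, 0.0593% and 0.117% in the knockout. There knockout replicate 3 lay inside the wild-type range and the others below it. TRAV6D-5 held 0.0317%, 0.157% and 0 in wild type against 0.108%, 0 and 0.234% in the knockout. TRAV6N-7 held 0.0317%, 0.0157% and 0.0241% in wild type, a step or so above 0, and 0.0180%, 0 and 0 in the knockout. Neighbours in this order did not differ beyond their spread, since the wild-type range of each of the 8 segments overlapped with that of the next.

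Copies with the same letters were listed at very different levels. TRAV6-6 stood above TRAV6D-6, whose exons are identical to its own, in 6 of 6 libraries, by 20.3, 13.0 and 4.70 times in wild type against 18, 7 and 10.0 times in the knockout. TRAV6D-7 stood above TRAV6N-7 by 10.0, 14 and 15 times in wild type and by 9 times in knockout replicate 1, and TRAV6N-7 was listed at 0 in the others. TRAV6-5 was listed at 7.20, 4.50 and 15.4 times TRAV6N-5 in wild type and at 32.0 times in knockout replicate 1. This pair differs at 1 of the printed bases of exon 2, and its leader exons were not compared. In knockout replicate 3 those values were equal, and in replicate 2 TRAV6N-5 was listed at 0. Whether such ratios belong to the segments or to the assignment of reads was not tested. Summed over the pairs with identical exons, TRAV6-6 with TRAV6D-6 held 1.5% ± 0.477 in wild type against 0.931% ± 0.416 in the knockout (SD, n = 3; exact permutation p = 0.2). TRAV6D-7 with TRAV6N-7 are the Trav6-7 copies given above. TRAV6-5 with TRAV6N-5, which differ at 1 printed position of exon 2, held 1.34% ± 0.663 and 0.552% ± 0.178 (SD, n = 3; exact permutation p = 0.2).

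**Figure D3:**
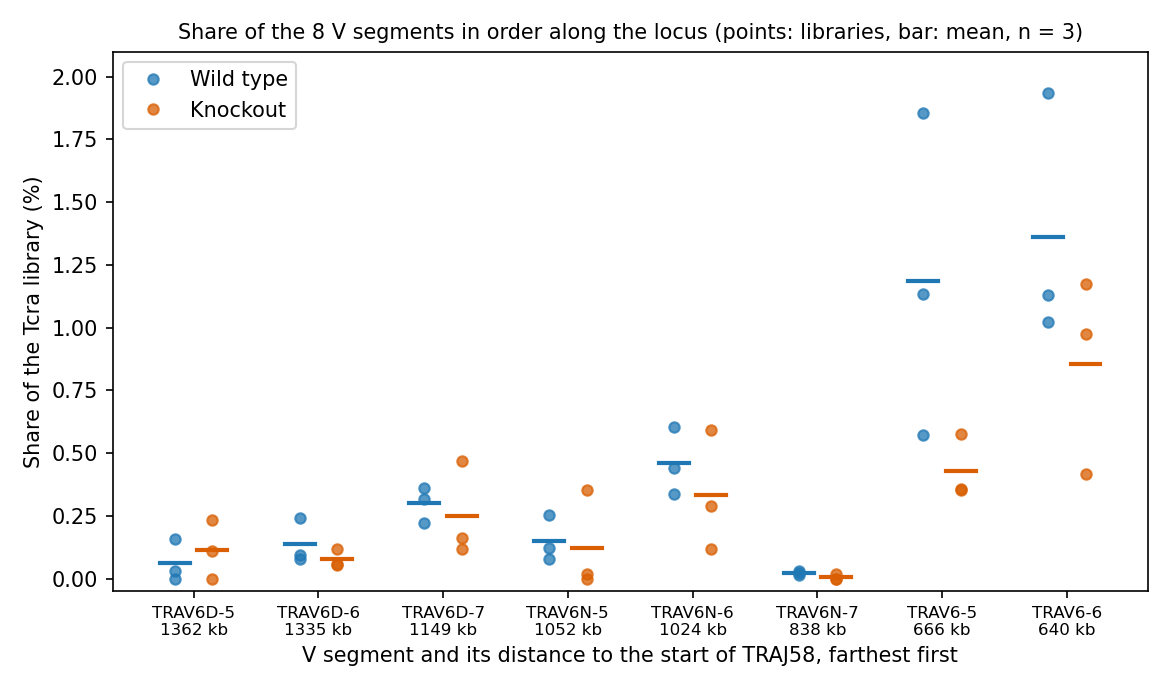
Share of the Tcra library (percent) of each of the 8 V segments, ordered from the farthest to the nearest to TRAJ58, with points for libraries and bars for the mean of 3 libraries. TRAV6-5 and TRAV6-6, the nearest at 666 and 640 kb, reach 1.85% and 1.93%, and no other segment passes 0.602%.

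No copy passed the test across all V segments. The test was limma on log2(percent + 0.0157), with V names of at least 0.1% on average, and it called 4 of 84 V names (4.76%) at a Benjamini-Hochberg adjusted p of 0.05. Of the 8 segments 6 reached the minimum and 0 were called, and TRAV6D-5 and TRAV6N-7 lay below it. At an unadjusted limma p of 0.05 the count was also 0, against 23 of all 84 V names. The 6 log2 differences (knockout minus wild type) ran from -1.38 to -0.45 with a median of -0.70, against -0.73 over all 84, and 4 of them turned positive when log values were centred within libraries, a scaling that moved the median over all V names from -0.73 to 0.20. TRAV6-5 had a log2 difference of -1.32 with an SE of 0.60 (limma adjusted p = 0.199), and TRAV6-6 had -0.73 with an SE of 0.60 (limma adjusted p = 0.462). The -1.38 was that of TRAV6N-5, listed at 0 in knockout replicate 2. It became -0.40 with 0.117 added in place of 0.0157, and -2.61 with 0.00157.

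Every knockout library lay below every wild-type library for 0 of the 6 copies tested singly, against 32.1% of the 84 V names. With copies of a number summed, this held for 1 of the 3 numbers, Trav6-6, against 34% of 53 names. In the fit of summed names limma called 11 of 53 (20.8%) and none of the 3 numbers. Of the 3, 0 had an unadjusted limma p under 0.05, against 21 of all 53 names. The summed log2 differences were -1.03 for Trav6-5 (limma adjusted p = 0.215), -0.60 for Trav6-6 (limma adjusted p = 0.318) and -0.51 for Trav6-7 (limma adjusted p = 0.511), and with centred log values the last 2 became 0.11 and 0.19. Among the 35 other copied names in that fit 5 fell and 0 rose, with a median log2 difference of -0.54. Of the 7 other TRAV6 names, TRAV6-7-DV9 included, 3 reached the minimum and 0 were called.

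The J segments joined to these V segments were then compared. The mean J number is the average of the J segments' numbers weighted by share, and it is higher the nearer the joins lie to the V segments. For the 8 together it was 28.9, 26.3 and 33.8 in wild type against 40.1, 46.2 and 47.2 in the knockout. All knockout libraries stood above all wild-type libraries (mean difference 14.8, exact permutation p = 0.1, adjusted 0.183). J segments numbered TRAJ42 or higher, called 5′ J segments here, took 27.3%, 16.6% and 36.7% of the 8 segments' joins in wild type against 59.0%, 65.4% and 83.3% in the knockout. Those numbered TRAJ21 or lower, called 3′ J segments, took 37.7%, 41.7% and 18.9% in wild type against 17.2%, 3.85% and 0 in the knockout. Again no knockout library overlapped wild type (exact permutation p = 0.1 for each, adjusted 0.183), and the remaining 3′ J joins in the knockout were mostly those of replicate 1, the knockout library of the finest resolution.

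As shares of the whole library, the loss lay in the middle and 3′ J segments. The 8 segments joined to 3′ J segments held 1.38%, 1.38% and 0.770% in wild type against 0.379%, 0.0593% and 0 in the knockout. Joined to the 16 J segments between, they held 1.49% on average in wild type against 0.489% in the knockout. Joined to 5′ J segments they held 0.998%, 0.551% and 1.49% in wild type against 1.30%, 1.01% and 2.34% in the knockout, and these ranges overlapped. For single J segments, the summed share of the 8 was higher in all knockout than in all wild-type libraries for TRAJ58 and TRAJ57, that is for 2 of 13 5′ J segments. It was higher for 0 of the middle and 3′ J segments. It was lower for 0 of 13 5′, 6 of 16 middle and 8 of 14 3′ J segments. Over all other V names 23.3% of the 43 J segments were higher in this way and 53.5% lower. That base covers all J segments and cannot be set against 1 class. Of the 14 3′ J segments 5 were listed at 0 with these V segments in all knockout libraries, and 8 were listed in knockout replicate 1 only. No such count for other V names is given here, so these 2 counts cannot be read as particular to the 8.

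TRAJ58, joined to the 8, held 0.0634%, 0.0157% and 0.0241% in wild type against 0.0722%, 0.237% and 0.234% in the knockout. TRAJ57 held 0.0634%, 0.0315% and 0.0963% in wild type against 0.126%, 0.237% and 0.117% in the knockout. Both lie at the 5′ end of the array, and in each the lowest knockout library was close to the highest wild-type library.

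The J profile of the 8 was close to that of the other copied V segments. The J window from TRAJ58 to TRAJ48 held 16.6% ± 6.58 of their joins in wild type against 50.4% ± 7.13 in the knockout (SD, n = 3), against 16.7% ± 1.03 and 60.6% ± 8.84 for the 90 other copied V names. The next window, TRAJ47 to TRAJ38, held 14.7% ± 4.18 and 27.9% ± 12.0 for the 8 and 17.6% ± 3.08 and 20.0% ± 1.67 for the others (SD, n = 3). The mean J number of the 8 minus that of the other copied V names was 0.0363, -2.28 and 2.57 in wild type against -2.59, -1.54 and -0.807 in the knockout. It was below 0 in 4 of 6 libraries, with a mean of -0.768 ± 1.90 (SD, n = 6; exact two-sided sign-flip permutation p = 0.406, adjusted 0.917 over 4 within-library values). The difference between genotypes did not hold up either (exact permutation p = 0.3), and its sign turned when each pair was counted once (1.16) or when only pairs of at least 0.117% were kept (8.05, over the 2 wild-type and 2 knockout libraries that then listed any of the 8).

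**Figure D4:**
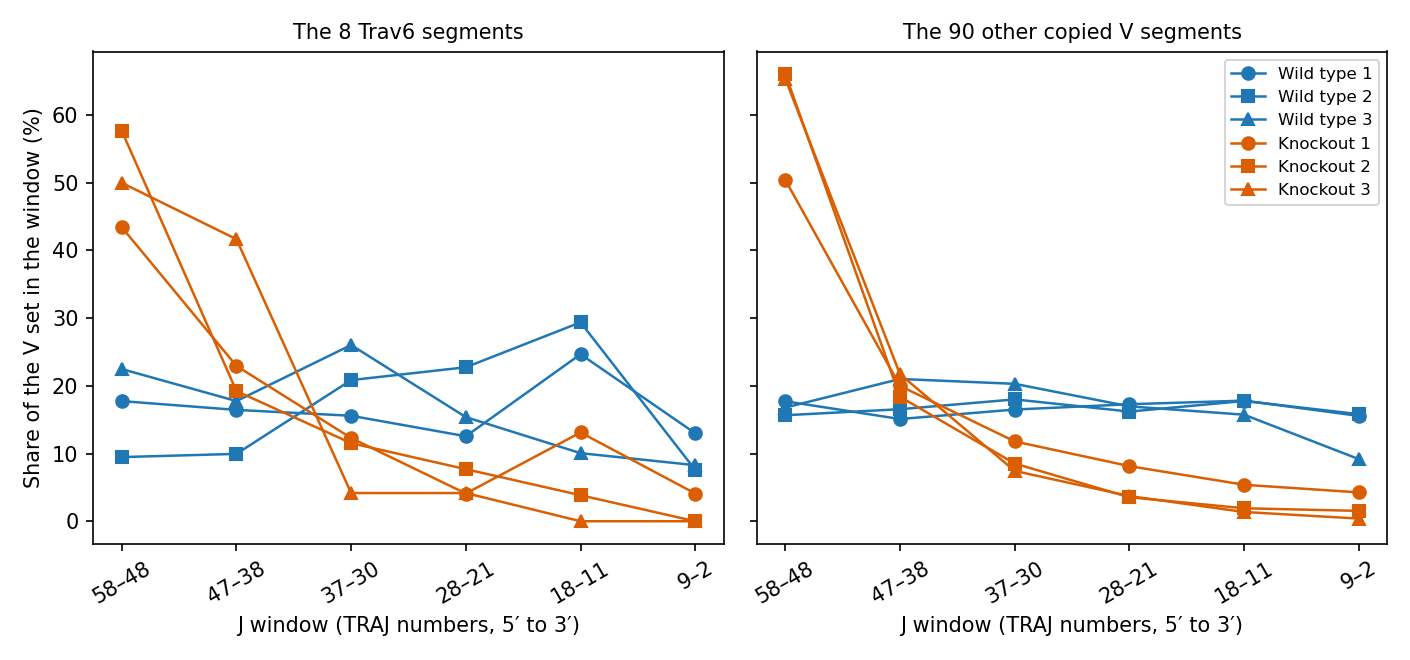
Share of joins (percent) in 6 windows of J segments ordered from 5′ to 3′, for the 8 Trav6 segments (left) and the 90 other copied V segments (right), with 1 line per library. In both panels the knockout lines start between 43.4% and 66.1% in the first window and the wild-type lines between 9.48% and 22.5%.

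The D, N and plain copies, which lie far apart on the chromosome, did not separate by mean J number. The sums are not alike, since the plain sum holds no Trav6-7 row. In addition, the exons do not tell TRAV6D-6 from TRAV6-6 or TRAV6D-7 from TRAV6N-7. The mean J number of the plain copies was 28.7, 25.6 and 34.0 in wild type against 40.0, 45.7 and 46.8 in the knockout. That of the D copies was 33.4, 26.3 and 28.9 in wild type against 43.9, 41.0 and 47.6 in the knockout. That of the N copies was 26.7, 28.5 and 38.2 in wild type against 36.4, 48.5 and 47.8 in the knockout. Within libraries the D copies minus the plain copies gave a mean of 0.0422 ± 4.18 and stood above 0 in 4 of 6 libraries (SD, n = 6; exact sign-flip permutation p = 0.969). The N copies minus the plain copies gave 0.877 ± 3.06 (exact sign-flip permutation p = 0.469), and the D copies minus the N copies gave -0.835 ± 7.01 (exact sign-flip permutation p = 0.688), with adjusted p of at least 0.917 for all 3. The spread between libraries was several times each mean, so a difference of a few J segments between copies was not detectable here. With only the numbers 5 and 6 summed, D minus plain gave 0.415 (exact sign-flip permutation p = 0.875). N minus plain then gave 0.869 and D minus N gave -0.454 (exact sign-flip permutation p = 0.469 and 0.844).

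The numbers were compared in the same way. The Trav6-5 copies had a mean J number of 28.2, 24.9 and 31.5 in wild type against 43.2, 56.3 and 50.4 in the knockout. The Trav6-6 copies had 28.8, 27.8 and 36.9 in wild type against 38.4, 42.9 and 46.6 in the knockout. Trav6-5 thus stood below Trav6-6 in all 3 wild-type libraries and above it in all 3 knockout libraries. The difference, Trav6-5 minus Trav6-6, was -0.663, -2.89 and -5.45 in wild type against 4.73, 13.4 and 3.79 in the knockout (exact permutation p = 0.1, adjusted 0.30 over 6 such contrasts between numbers and between copies). The Trav6-5 copies joined 5′ J segments in 27.9%, 11.2% and 29.3% of their share in wild type against in 64.1%, 100% and 100% in the knockout. The Trav6-6 copies did so in 26.5%, 21.4% and 46.5% and in 58.9%, 55.6% and 83.3%. The Trav6-6 copies minus the Trav6-7 D and N copies showed no such opposition, with -1.74, 2.07 and 5.42 in wild type against -1.58, -3.11 and 3.83 in the knockout (exact permutation p = 0.6, adjusted 0.84). These contrasts were chosen after the values were seen, and whether numbers differ more than copies was not tested. In the knockout TRAV6-5 was listed with 21, 4 and 2 J segments, so its mean J number in replicates 2 and 3 rests on few pairs.

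The Trav6-7 D and N copies had a mean J number of 30.6, 25.7 and 31.5 in wild type against 40.0, 46.0 and 42.7 in the knockout, the same order of genotypes as in the other numbers. The values of knockout replicates 2 and 3 rest on TRAV6D-7 alone, listed there with 2 and 4 J segments. TRAV6-7-DV9, with 30.3, 31.0 and 32.1 in wild type against 44.3, 47.1 and 44.1 in the knockout, showed less spread than any of the 3 summed numbers in both genotypes. It had a higher share and was listed with 40 J segments in each wild-type library and 33, 12 and 16 in the knockout. Whether this set its spread was not tested.

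**Figure D5:**
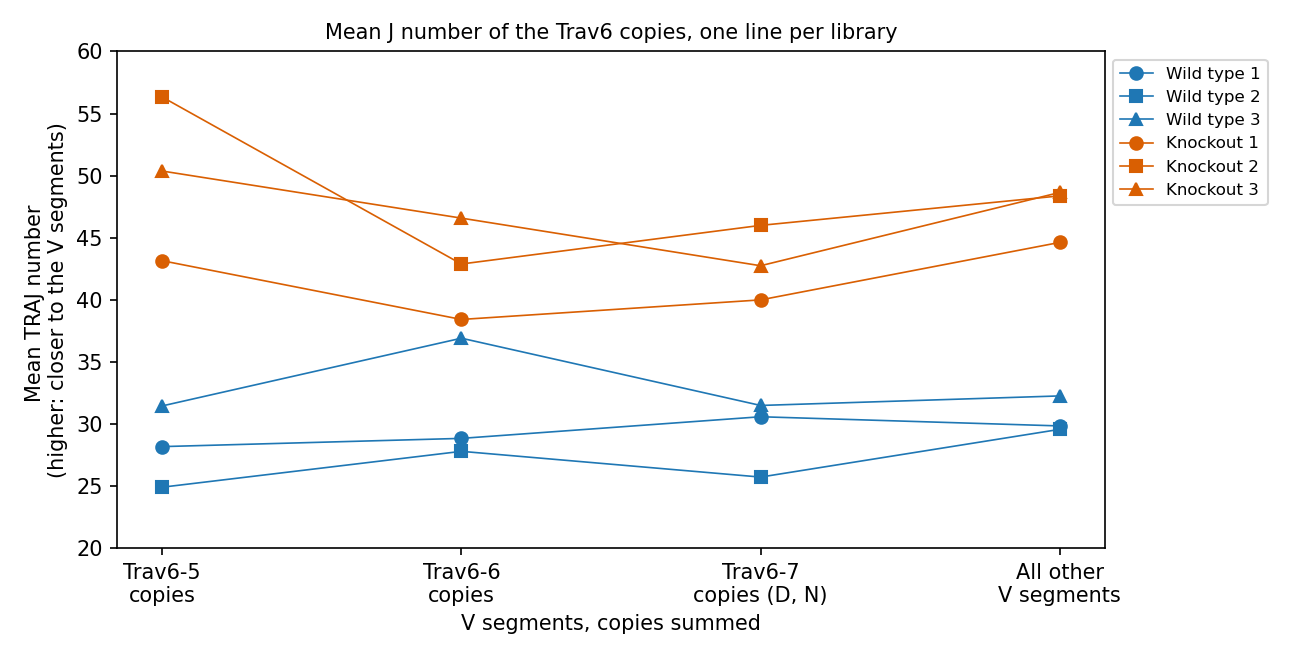
Mean J number (vertical axis, weighted by share) of the Trav6-5, Trav6-6 and Trav6-7 copies and of all 109 other V names, with 1 line per library. The knockout lines lie above the wild-type lines in each column, and the Trav6-5 copies run from 24.9 to 31.5 in wild type and from 43.2 to 56.3 in the knockout.

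Single pairs were thin. Of the 344 pairs 210 were above 0 in at least 1 library, 28 were listed in all 3 wild-type libraries, 3 in all 3 knockout libraries and 1 in all 6. That pair, TRAV6-6 with TRAJ56, held 0.0475%, 0.0472% and 0.0722% in wild type against 0.0541%, 0.0593% and 0.117% in the knockout. No pair reached the minimum of 0.1%, so none entered the test of pairs, in which limma called 72 of 202 (35.6%). The most used pairs in wild type were TRAV6-5 with TRAJ31 (0, 0.0944% and 0.193%), TRAV6-6 with TRAJ15 (0.158%, 0.0629% and 0.0481%) and TRAV6-5 with TRAJ42 (0.0317%, 0.0157% and 0.217%). The most used in the knockout were TRAV6-5 with TRAJ52 (0.0361%, 0.0593% and 0.234%), TRAV6-6 with TRAJ47 (0.0902%, 0 and 0.234%) and TRAV6-6 with TRAJ42 (0.0361%, 0 and 0.234%). For all 3 of the knockout pairs the mean rests mostly on replicate 3, the coarsest library.

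With no minimum, limma called 140 of 3123 pairs (4.48%), among them 3 of the 210, all with TRAV6-5. TRAV6-5 with TRAJ52 was listed at 0 in all wild-type libraries and was higher in all knockout libraries (limma adjusted p = 0.0436). TRAV6-5 with TRAJ32 held 0.0317%, 0.0472% and 0.0963% in wild type while all knockout libraries listed 0 (limma adjusted p = 0.0480). TRAV6-5 with TRAJ27 held 0.0317%, 0.0787% and 0.120% in wild type while all knockout libraries listed 0 (limma adjusted p = 0.0369). A share of 1.43% of the 210 is below the 4.48% of all pairs. In knockout replicate 3 the wild-type values of TRAJ32 would be under the smallest listed value, 0.117%. For TRAJ27 those of wild-type replicates 1 and 2 would be too, and the 0.120% of replicate 3 is close to it. In knockout replicate 2 the smallest listed value was 0.0593%, above the 0.0317% of both pairs and the 0.0472% of TRAJ32.

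The V names whose J profile was most like that of the 8 were sought by the overlap of profiles, the sum over J segments of the smaller of both shares, averaged over the 6 libraries. Among 27 names of at least 1%, copies summed, TRAV7-5 had the highest overlap at 64.5%, followed by TRAV12-2 at 62.8% and TRAV14-1 at 60.4%. Their mean shares were 12.4%, 5.59% and 2.33%, and whether the overlap depends on share or resolution was not tested. All 3 have D and N copies, but so does TRAV8-2, the least similar of the 27 names at 32.9%. For comparison, the profile of the 8 overlapped with itself by 61.8% to 68.4% between wild-type libraries, by 47.4% to 57.6% between knockout libraries and by 25.9% to 61.9% between genotypes. The highest of the last was between both replicates 1. None of the 8 names was among the 15 V names of the delta chain tables, where these segments could appear if joined to delta J segments.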

How the data were processed

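The deposited tables, 1 per Tcra library, give the percent of the library in each V–J pair, and each library's values sum to its whole. Reads were trimmed with fastp per the submitters' processing notes. For the aligner, the segment caller and the build, the sources used here give no name. No counts are given, so depth is unknown; the smallest value above 0 shows each library's resolution. Groups came from the labels.

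Shares were summed over J segments, and over copies of a number. Limma 3.58.1 (R 4.3.3) was fitted to log2(percent + 0.0157) for V names, summed names and pairs that averaged 0.1% or more. Benjamini-Hochberg adjustment was made over all features tested. This scale understates changes of low shares, but it can overstate a fall where a coarser library lists 0. Single values were compared by exact two-sided permutation over 20 arrangements, and within-library differences by exact sign flips over 64. The limma step was tested on simulated data. Positions and exons came from GENCODE M21 by gene name, with all 8 names matched, and exons were aligned with Biopython 1.88. Python 3.11.15, numpy 2.4.6, pandas 2.3.3 and matplotlib 3.10.9 were used.

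The text names all 8 members, the 3 most used pairs per genotype, and the 3 most similar V names of at least 1%. The members and lists were chosen with earlier results of these data known. The called pairs outside that rule were named after their values were seen. Alternatives were other pseudocounts, no minimum share, centred log values, a replicate block, each pair counted once, a higher minimum per pair, other J bounds, and each library left out. Sums limited to the numbers 5 and 6, sums with names of the delta chain, and contrasts between numbers were added after the data were seen. The other 3 chains were not analysed here, except for the names in the Tcrd tables.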

Additional observations from a re-analysis of the deposited data

Results flagged for a closer look

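The mean J number of the Trav6-5 copies minus that of the Trav6-6 copies was below 0 in all 3 wild-type libraries and above 0 in all 3 knockout libraries. The mean of this difference was 10.3 J numbers higher in the knockout (-3.00 in wild type, 7.32 in the knockout; exact two-sided permutation p = 0.1, adjusted 0.30 over 6 contrasts). For the Trav6-5 copies minus the Trav6-7 D and N copies the signs were opposed in the same way, with -2.40, -0.815 and -0.0366 in wild type against 3.15, 10.3 and 7.63 in the knockout. The knockout mean was 8.12 higher there (exact permutation p = 0.1, adjusted 0.30). In knockout replicates 2 and 3 TRAV6D-7 was listed with 2 and 4 J segments and TRAV6N-7 with 0. TRAV6-5 was listed with 4 and 2 there, so both sides of that contrast rest on few pairs. With each pair counted once, the difference from Trav6-6 in wild-type replicate 1 was 0.0198 and no longer below 0, and the shift between genotypes was 10.1. The difference from Trav6-7 was then 1.53 in wild-type replicate 2, and the shift 6.71. Both contrasts share the Trav6-5 values. They were flagged because their signs were opposed between genotypes, and such opposition fixes the exact permutation p at 0.1. That is also the smallest p that 3 against 3 libraries allow. These p-values therefore add nothing to the flag, and no adjusted p could have passed 0.05.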

How the results depend on the processing

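No copy and no summed number was called by limma under any of the settings run. When only pairs of at least 0.117% were kept, the mean knockout minus wild-type differences in share turned positive, with overlapping genotypes: 0.786 for the 8 segments, 0.135, 0.495 and 0.156 for Trav6-5, Trav6-6 and Trav6-7, and 0.278, 0.274 and 0.235 for the plain, D and N copies. By construction this removes low pairs from the finer libraries and none from knockout replicate 3. The J number of the 8 minus that of other copied V names then differed by 8.05 between genotypes (exact permutation p = 0.667), over 2 libraries of each genotype, since wild-type replicate 2 and knockout replicate 1 kept no pair of the 8. With each pair counted once, the Trav6-6 share gave 0.0304, and the J number against other copied names gave 1.16 between genotypes and 0.935 within libraries. With centred log values the log2 differences were 0.19 for TRAV6-6, 0.28 for TRAV6D-6, 0.47 for TRAV6D-7, 0.25 for TRAV6N-6, and 0.11 and 0.19 for summed Trav6-6 and Trav6-7. Beyond this construction the cause was not tested.

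V segments called numbered 4, against 1 with the smaller and 18 with the larger pseudocount and 7 with no minimum share. Summed names called numbered 11, against 7 with the smaller pseudocount. Pairs called numbered 72, against 5 with the smaller pseudocount, 140 with no minimum and 36 with centred values. With the replicate number as a block, 15 V segments, 18 summed names and 84 pairs were called. Replicate numbers were not taken as pairing libraries, since the residual correlation of equal numbers was 0.318, -0.0367 and 0.184 over V segments and 0.254, 0.00898 and 0.234 over summed names. Over pairs it was 0.0634, 0.135 and 0.170, above the highest of unequal numbers (0.0356), with number 1 under the bound of 0.1 set for pairing.

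Leaving out each library in turn gave 0 to 14 V segments, 1 to 18 summed names and 7 to 79 pairs. It gave differences of -1.81 to -1.17 for the share of the 8, -1.09 to -0.446 for Trav6-5, -0.906 to -0.361 for Trav6-6, -0.174 to 0.00146 for Trav6-7, -1.46 to -1.01 for plain, -0.249 to 0.0722 for D and -0.248 to -0.103 for N copies. The D copies turned positive without knockout replicate 2. For the J number it gave 13.2 to 17.1 between genotypes, -0.895 to 1.08 for D minus plain, -2.50 to 0.872 for D minus N and 0.206 to 1.77 for N minus plain copies. Depth is unknown, and the coarse knockout libraries limit what can be said of single pairs and of the rarer copies.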

Other observations

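TRAV6N-6 had a mean J number of 27.8 and 29.8 in wild-type replicates 1 and 2, each with 20 J segments listed, and of 42.5 in wild-type replicate 3, with 12 listed. In the knockout it was 36.4, 48.5 and 49.0 with 13, 8 and 1 J segments listed. TRAV6-6 stood at 28.6, 26.6 and 37.4 in wild type, where replicate 3 was again the highest, and at 38.5, 36.6 and 46.2 in the knockout. Wild-type replicate 3 thus overlapped knockout values for both segments.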
